A study of Mus musculus with 22 samples.

Results

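The control arm of a study of the transcription factor CREB consists of mouse cortical neurons that received only GFP, and 6 of its 22 RNA-seq libraries are of this kind. They were chosen by their labels alone: 4 libraries after 8 h of the GFP virus and 2 after 4 h. The question they answer is what the neurons without CREB express after depolarization, and what differs between the 8 h and the 4 h libraries before any CREB is put back. The other libraries carried wild-type or mutant CREB, and 12 of them (wild type, and CREB with its serine 40 changed to alanine, S40A) have the same pair of times.

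The neurons of every group were labelled Creb1-/- on a C57BL/6 background. They were taken from the cortex at E16.5 (embryonic day) and used at day 7 in vitro. Cultures were silenced for 12 to 16 h with 1 µM tetrodotoxin (TTX), which blocks sodium channels, and 100 µM D-AP5, which blocks NMDA receptors. A herpes simplex virus (HSV) vector expressing GFP was then added for 4 h or 8 h, and 55 mM KCl depolarized the cells for 2 h. Every library is therefore from infected, silenced and depolarized cells, and none of the 22 is from uninfected or unstimulated neurons. RNA came from whole cultures, and in such bulk samples fewer cells of a type and less RNA per cell cannot be told apart. Nothing in the labels states that replicates came from different cultures. The p-values therefore rest on the scatter between the libraries at hand, and that scatter may be technical.

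Depolarization opens voltage-gated calcium channels, and the calcium signal switches on immediate early genes such as Fos, Npas4 and Arc without new protein synthesis. CREB, bound at cyclic AMP response elements with the core TGACGTCA or its shorter form TGACG, is a classic mediator of that response, beside SRF, MEF2 and related factors. Cultured embryonic cortical neurons are mostly excitatory cells that extend axons and build synapses during the first week, with some inhibitory neurons, progenitors and glia among them.

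Creb1, the deleted gene, was measured at 11.8 and 15.7 FPKM in the 4 h libraries and at 12.3, 9.56, 14.9 and 11.2 FPKM in the 8 h libraries. FPKM is the number of fragments per length of transcript and library size, scaled here between libraries. The groups overlapped, with a log2 difference of -0.19 ± 0.20 (SE, limma adjusted p = 0.632). In the 12 WT and S40A virus libraries the same gene stood at 234 to 268 FPKM at 4 h and at 569 to 2306 FPKM at 8 h, all far above the GFP range. The extent of the deletion within Creb1 is not stated in the labels, and reads from outside it would still be counted, so these GFP values do not check the genotype.

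The promoters of 4 genes named in the results are shown first, from RefSeq, build GRCm38.p6, as the 250 bases before the start of transcription, 5′ to 3′ on the gene's strand. Fos is the immediate early gene with the highest level, Gata2 and Olig2 are transcription factors that differed in opposite directions between the times, and Pax6 is a gene that fell at 8 h and whose window holds the full CREB core. Capitals mark TGACGTCA, or TGACG on either strand.

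Fos (chr12:85473640-85473889, + strand): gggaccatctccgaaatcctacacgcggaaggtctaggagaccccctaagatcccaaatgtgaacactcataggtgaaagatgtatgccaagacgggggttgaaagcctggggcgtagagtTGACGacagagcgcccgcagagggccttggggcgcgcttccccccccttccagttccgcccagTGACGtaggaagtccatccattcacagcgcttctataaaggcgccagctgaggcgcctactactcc
Gata2 (chr6:88198414-88198663, + strand): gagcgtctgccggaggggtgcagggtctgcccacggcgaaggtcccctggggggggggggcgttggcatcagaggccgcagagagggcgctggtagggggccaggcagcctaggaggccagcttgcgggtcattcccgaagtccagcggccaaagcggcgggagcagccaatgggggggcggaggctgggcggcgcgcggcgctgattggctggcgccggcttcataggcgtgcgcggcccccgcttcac
Olig2 (chr16:91225300-91225549, + strand): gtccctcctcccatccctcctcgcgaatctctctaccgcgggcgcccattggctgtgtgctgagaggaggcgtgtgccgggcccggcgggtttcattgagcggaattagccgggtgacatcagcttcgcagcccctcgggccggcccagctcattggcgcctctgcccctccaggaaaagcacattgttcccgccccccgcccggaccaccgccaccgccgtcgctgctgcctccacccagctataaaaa
Pax6 (chr2:105668646-105668895, + strand): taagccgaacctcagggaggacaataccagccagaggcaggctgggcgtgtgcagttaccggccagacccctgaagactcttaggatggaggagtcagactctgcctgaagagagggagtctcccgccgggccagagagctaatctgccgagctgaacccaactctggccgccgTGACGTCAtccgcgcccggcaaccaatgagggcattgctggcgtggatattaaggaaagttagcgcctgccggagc

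The Fos window holds TGACG 129 and 66 bases before the start, the Pax6 window holds TGACGTCA 76 bases before it, and the Gata2 and Olig2 windows hold neither. Of all 32851 RefSeq promoter windows of 300 bases (250 before and 50 after the start), 1.79% hold TGACGTCA and 20.8% hold TGACG on either strand. Of the 8314 windows of the named genes tested, 3.78% hold the first and 36.5% the second. The second motif is contained in the first, and a match is a description of the letters only. A comparison of promoters over the called genes is void, since only 73.7% of the genes called higher and 68.5% of those called lower had a promoter entry, as did 77.3% of all named genes tested.

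Time and library set coincided, so the 8 h minus 4 h differences below are differences between sets of libraries in which the time of virus and the run cannot be told apart. Numbers that the submitters gave to the deposited tables put the 2 libraries at 4 h in separate runs, and those at 8 h in an earlier set (replicates 1 and 2) and a later set (replicates 3 and 4). Across genes, the library most like each GFP library was in every case one of the same replicate number and time with a CREB virus (Pearson r 0.966 to 0.994). The 4 h replicates correlated at r = 0.935 with each other, while 4 h replicate 2 correlated at r = 0.955 with 8 h replicate 1. The 8 h replicates correlated at 0.945 to 0.976. The tables hold no read counts; the widths of their intervals correspond to a depth of about 15.1 and 23.1 M fragments at 4 h and 29.1, 31.3, 20.1 and 18.7 M at 8 h (M stands for 1e6). The table of 4 h replicate 1 was made differently from the others: it alone among the 6 carried a low-data mark (347 entries), and 1855 of its values lay outside their own interval, against 0 to 4 in the other 5.

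Leaving aside ribosomal and pseudogene-rich genes, the highest mean levels over the 6 libraries included the growth cone genes Stmn2, Gap43, Basp1 and Crmp1. Stmn2, a microtubule-destabilizing protein of growth cones, was at 712 and 853 FPKM at 4 h and at 929, 731, 912 and 901 FPKM at 8 h. Gap43, which marks growing axons, was at 717 and 546 FPKM at 4 h and 557, 742, 653 and 885 FPKM at 8 h. In both genes the groups overlapped, and so they did for the mitochondrial genes Cox6a1, Atp5b and Slc25a4, and for Ptms, Sepw1, Crmp1 and Ywhag. Nnat, Gnas, Basp1 and Rn45s, also among the 15 highest, did not overlap. Nnat, an imprinted membrane protein of developing neurons, was at 1358 and 1435 FPKM at 4 h and 702, 425, 646 and 684 FPKM at 8 h (log2 -1.21 ± 0.32, limma adjusted p = 0.109). Gnas, the stimulatory G protein subunit upstream of cyclic AMP, was at 901 and 814 FPKM at 4 h and 560 to 670 FPKM at 8 h (adjusted p = 0.23). Basp1 was at 701 and 718 FPKM at 4 h and at 493 to 696 FPKM at 8 h (adjusted p = 0.477).

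The largest difference among these high genes was in Rn45s, the ribosomal RNA precursor, at 1446 and 815 FPKM at 4 h and 257, 251, 143 and 242 FPKM at 8 h. All 4 of the 8 h values lay below both 4 h values, with a log2 difference of -2.31 ± 0.36 that missed the threshold (limma adjusted p = 0.0507). Rn45s was not set aside with the ribosomal genes, since that rule covers protein genes, and for it too the time and the library set coincide.

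Markers of neurons and of progenitors and astrocytes were both present. All 17 excitatory and all 16 inhibitory neuron markers reached 1 FPKM in at least 1 of the 6 libraries, and so did all but 1 of 19 astrocyte and radial glia markers and all but 1 of 22 cell cycle and progenitor markers. Neurod6, an excitatory neuron transcription factor, was at 50.3 and 66.8 FPKM at 4 h and 129, 34.7, 65 and 56 FPKM at 8 h. Gad2, a GABA-synthesizing enzyme, was at 31.4 and 28.6 FPKM at 4 h and 12.7, 22.6, 16.9 and 33.9 FPKM at 8 h. The groups overlapped in both genes. Of 13 microglial markers 6 stayed under 1 FPKM in every library, among them Cx3cr1, Csf1r and P2ry12, and of 16 vascular and fibroblast markers 13 did, among them Cldn5 and Pecam1. Fabp7, a fatty acid binding protein of radial glia, was at 196 and 221 FPKM at 4 h and 74, 90.3, 169 and 54.4 FPKM at 8 h, and the neural stem cell factor Sox2 at 48.6 and 54.7 FPKM and then 39.5, 39.8, 21.3 and 60 FPKM. The astrocyte gene Gfap was at 1.41 and 4.11 FPKM at 4 h and at 4.3, 20, 19.6 and 3.11 FPKM at 8 h, so it varied more within the 8 h group than between the groups.

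Immediate early transcription factors were high in all 6 libraries, and their level went with the library rather than with the time. Fos was at 261 and 817 FPKM at 4 h and at 675, 517, 225 and 705 FPKM at 8 h. Junb, a partner of Fos in the AP-1 complex, was at 127 and 565 FPKM at 4 h and 494, 405, 108 and 408 FPKM at 8 h. Npas4, the neuron-specific factor that responds to calcium entry, was at 97.6 and 308 FPKM at 4 h and 186, 146, 32.2 and 183 FPKM at 8 h. In all 3 genes 4 h replicate 1 and 8 h replicate 3 were the lowest libraries. The groups overlapped in each, with limma adjusted p-values of 0.964 for Fos, 0.913 for Junb and 0.71 for Npas4. Over the 24 measured members of the list, the median log2 deviation from each gene's own mean was -0.95 in 4 h replicate 1 and -0.98 in 8 h replicate 3, against 0.15 to 0.61 in the other 4 libraries.

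Across all 12080 genes tested, limma called 216 between the times at an adjusted p under 0.05 (1.79%). Of these 136 were higher at 8 h (1.13%) and 80 lower (0.662%). Every called gene was one whose 4 h and 8 h values did not overlap, a wider class that held 2061 genes higher (17.1%) and 1899 lower (15.7%) at 8 h. With 4 libraries against 2, an exact permutation test of a single gene cannot go below p = 0.067, so non-overlap is a description and the calls rest on the fit across all genes. The number of calls leaned on single libraries. It was 63 without 4 h replicate 1, 89 without 4 h replicate 2, 26 without 8 h replicate 2, 15 without 8 h replicate 3 and 12 without 8 h replicate 4, and 174 without 8 h replicate 1. The direction of all 216 was the same in each of these fits, but this was fixed in advance. Where groups do not overlap, leaving out a library cannot reverse the sign. Without further scaling of the deposited FPKM, limma called 52 genes, of which 73.1% were higher at 8 h against 63% in the scaled values. The share of non-overlapping genes that were higher was then 65.5% against 52%. Other settings moved the share of higher calls both ways. It was 52.4% of 143 calls without the filter on low values. With 5 FPKM instead of 1 added before the log it was 51.6% of 192 calls, and with 0.1 FPKM added 72.3% of 188. With a minimum of 5 FPKM it was 84.8% of 33 calls. When either 4 h library was left out, lower calls outnumbered higher ones, with a single library then left at 4 h.

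Setting aside ribosomal, pseudogene-rich, predicted and very short entries left 10759 named genes, of which 206 were called, 73 of them lower and the others higher at 8 h. Among those called higher, 43 had a mean under 1 FPKM at 4 h. Of them 7 were listed at exactly 0 in both 4 h libraries: Arg2, Fam13c, Fbxl15, Pdss1, Rasd1, Rasl10a and Raver2. Pdss1, an enzyme of coenzyme Q synthesis, was at 8.99, 8.44, 11.2 and 9.77 FPKM in the 8 h libraries. Fbxl15, a subunit of a ubiquitin ligase, was at 16.8, 13.8, 13.4 and 15.5 FPKM at 8 h. In the opposite direction Mterfd1, of the mitochondrial transcription termination factor family, was at 9.06 and 8.76 FPKM at 4 h and listed at 0 in all 4 libraries at 8 h, and Txnrd2, the mitochondrial thioredoxin reductase, was at 9.27 and 5.33 FPKM at 4 h and listed at 0 in all 4. An exact 0 in an FPKM table can be a failed estimate, and no fold is given for these 9 genes. Of all 206 called named genes, 5 kept their call whichever GFP library was left out, and all 5 were of this kind: Arg2, Fam13c, Fbxl15, Mterfd1 and Pdss1. Another 97 lost the call in each of those 6 fits, which have fewer libraries, Olig2, Pax6, Nefl and Gria2 among them. Of genes described below, Gata2, Runx3, Lhx5, Nrgn, Gabrd, Sstr1, Sstr4, Rnd1, Kif11 and Rfx4 kept it in only 1 of the 6. Shh and Emx1 kept it in 2, Egfr and Sema7a in 3, Htr3a in 4, and Dio3 and Chd7 in 5.

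Transcription factors and signals that pattern the embryo were among the named genes called higher. Gata2, a zinc finger factor best known from blood progenitors and some midbrain neurons, was at 0.0777 and 0.722 FPKM at 4 h and at 6.71, 8.3, 12.3 and 11.6 FPKM at 8 h. All 8 h libraries stood well above both 4 h libraries, and the log2 difference was 2.94 ± 0.31 (limma adjusted p = 0.0323). Shh, the Sonic hedgehog ligand, rose from 1.44 and 1.65 FPKM to 8.61, 11, 8.26 and 7.69 FPKM, a log2 difference of 1.95 ± 0.17 (adjusted p = 0.0253). Runx3, a runt factor of sensory neurons and T cells, was at 0 and 0.149 FPKM at 4 h and at 2.3, 2.89, 4.5 and 3.11 FPKM at 8 h (log2 1.95 ± 0.21). Lhx5, a LIM homeobox factor of early forebrain, rose from 1.59 and 1.71 FPKM to 6.02, 7.38, 10.5 and 10.6 FPKM (log2 1.83 ± 0.25). None of these 4 genes exceeded 12.3 FPKM in any GFP library.

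Families of such genes were also counted by symbol, a choice made after the values were seen. Of 57 homeobox genes tested, 7 were called higher and 2 lower, and 24 did not overlap in the higher direction (42.1%, against 17.1% of all genes tested) with 8 in the lower (14%, against 15.7%). Their median log2 difference was 0.35, against -0.03 over all genes tested. Hoxa10, a posterior Hox gene that cortex does not normally use, was at 0.0804 and 0.148 FPKM at 4 h and at 1.02, 0.949, 1.33 and 1.19 FPKM at 8 h. Without the filter on low values, 79 of 152 homeobox genes were non-overlapping in the higher direction and 10 in the lower, against 13.6% and 12.6% of 20376 entries. Of 27 GATA, Runx, Tbx and Tfap2 factors 10 were tested. Of these 5 were called higher and none lower, 9 did not overlap in the higher direction and 1, Tfap2d, in the lower. Of all genes tested 1.13% were called higher and 0.662% lower. Of 19 Wnt, Fgf, Bmp and hedgehog ligands, Shh alone was called, and 9 did not overlap in the higher direction (47.4%) with 3 in the lower (15.8%). Without the filter, 17 of the 27 GATA, Runx, Tbx and Tfap2 factors were non-overlapping in the higher direction and 2 in the lower. Members with low levels pass the filter only if some library is high. The filter took the mean over all 22 libraries, most of them at 8 h, so a low gene passed more easily when high at 8 h. These counts among tested genes therefore describe them and carry no test.

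**Figure D1:**
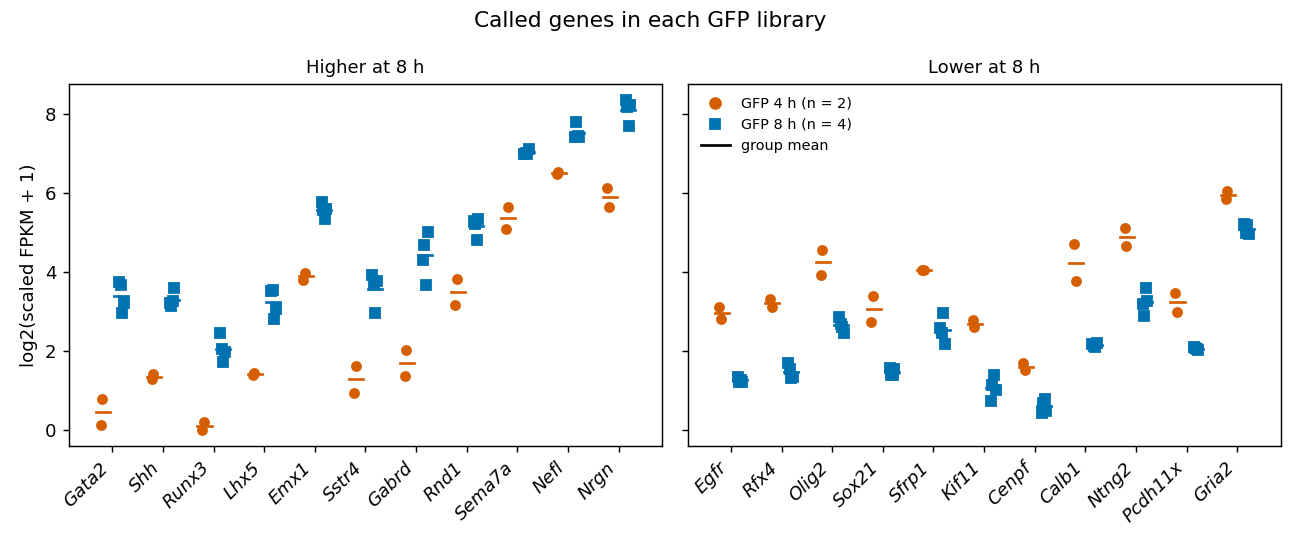
Level of 22 called genes in each GFP library, as log2(scaled FPKM + 1), for genes higher at 8 h (left) and lower at 8 h (right). Circles are the 2 libraries at 4 h, squares the 4 libraries at 8 h and lines the group means; in no gene shown do the groups overlap, and levels range from under 1 FPKM (Runx3 at 4 h) to 324 FPKM (Nrgn at 8 h).

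Other named genes that rose did so at higher levels. The excitatory neuron and synaptic lists did not lean one way, while the growth cone and axon guidance list, given further below, leaned lower. Of 17 excitatory neuron markers 1 was called (Emx1, higher), with a median log2 difference of 0.05. The median over 38 synaptic entries was -0.03, with 5 non-overlapping higher (13.2%, against 17.1% of all genes tested) and 6 lower (15.8%, against 15.7%). Nrgn, or neurogranin, a postsynaptic calmodulin-binding protein of forebrain excitatory neurons, was at 68.8 and 48.9 FPKM at 4 h and at 207, 296, 324 and 285 FPKM at 8 h. The log2 difference was 2.22 ± 0.24 (limma adjusted p = 0.0323), and the groups were far apart. Emx1, a homeobox factor that marks the dorsal forebrain and its excitatory neurons, rose from 12.9 and 14.7 FPKM to 39.7, 47.4, 53.5 and 45.9 FPKM (log2 1.68 ± 0.14). Sema7a, a membrane-anchored semaphorin that promotes axon growth, rose from 33 and 48.8 FPKM to 125, 138, 125 and 127 FPKM (log2 1.65 ± 0.17). Nefl, the light neurofilament subunit, rose from 87.2 and 91.1 FPKM to 173, 168, 168 and 221 FPKM (log2 1.02 ± 0.15). Nogo signalling limits axon growth, and its receptor gene Rtn4r rose from 11.7 and 16.6 FPKM to 29.5, 36.3, 33.9 and 33.5 FPKM (log2 1.20 ± 0.16).

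Further single genes that rose encode receptors, a channel and other proteins. The list of 33 voltage-gated ion channels had none called, a median log2 difference of 0.02, and 5 members non-overlapping higher (15.2%, against 17.1% of all genes tested) and 3 lower (9.09%, against 15.7%). Gabrd, the delta subunit of extrasynaptic GABA-A receptors, was at 1.55 and 3.03 FPKM at 4 h and at 11.7, 31.1, 18.6 and 24.6 FPKM at 8 h (log2 2.73 ± 0.41, limma adjusted p = 0.0497). Of 3 somatostatin receptor genes tested, a family picked after the values were seen, Sstr1 and Sstr4 were called higher (1.13% of all genes tested were). Sstr1 rose from 3.53 and 3.9 FPKM to 13.8, 12.3, 13.7 and 11.1 FPKM (log2 1.54 ± 0.13), and Sstr4 from 0.898 and 2.08 FPKM to 6.69, 12.5, 14.2 and 11.6 FPKM (log2 2.30 ± 0.35). Kcnk3, a background potassium channel, rose from 4.88 and 4.98 FPKM to 10.9, 13.9, 11.3 and 13.5 FPKM (log2 1.17 ± 0.14). Rnd1, a small GTPase that loosens the actin cytoskeleton, rose from 7.95 and 13 FPKM to 27.1, 39.5, 37.8 and 35.7 FPKM (log2 1.67 ± 0.24). Dio3, the deiodinase that inactivates thyroid hormone, rose from 0.284 and 0.56 FPKM to 14.9, 11.2, 17.6 and 13.3 FPKM (log2 3.41 ± 0.21, adjusted p = 0.00726). Hr, a nuclear corepressor whose gene is a thyroid hormone target in brain, rose from 1.67 and 1.42 FPKM to 11.3, 16.6, 11.6 and 9.93 FPKM (log2 2.37 ± 0.22).

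Several genes used by progenitors, the glial lineage or dividing cells were among those that fell. Egfr, the epidermal growth factor receptor of progenitors and glia, fell from 7.54 and 6.02 FPKM to 1.4, 1.31, 1.5 and 1.29 FPKM. The 8 h values were tightly grouped far below both 4 h values, and the log2 difference was -1.71 ± 0.12 (limma adjusted p = 0.01). Olig2, the factor that specifies the oligodendrocyte lineage, fell from 14.1 and 22.6 FPKM to 5.07, 4.44, 6.25 and 5.44 FPKM (log2 -1.59 ± 0.23, adjusted p = 0.0449). Rfx4, a regulator of neural tube patterning and cilia, fell from 8.87 and 7.62 FPKM to 1.48, 1.5, 2.25 and 1.92 FPKM (log2 -1.74 ± 0.16). Sox21 fell from 5.65 and 9.38 FPKM to 1.61, 1.92, 1.96 and 1.6 FPKM (log2 -1.59 ± 0.20), and Sfrp1, a secreted Wnt antagonist, from 15.5 and 15.6 FPKM to 6.71, 3.47, 4.97 and 4.41 FPKM (log2 -1.52 ± 0.23). Pax6, a radial glial factor, fell from 5.23 and 5.79 FPKM to 2.8, 2.25, 2.6 and 2.19 FPKM (log2 -0.91 ± 0.13, adjusted p = 0.0433). Chd7, a chromatin remodeller of neural progenitors, fell from 2.65 and 3.04 FPKM to 0.649, 0.555, 0.456 and 0.624 FPKM (log2 -1.29 ± 0.08, adjusted p = 0.00937).

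Of 21 cell cycle and progenitor markers tested, 3 were called lower (Aurka, Bub1 and Cenpf) and none higher, and 16 did not overlap in the lower direction (76.2%, against 15.7% of all genes tested). Their median log2 difference was -0.87. The progenitor genes Eomes and Hes1 lay the other way without being called: Eomes, a factor of intermediate progenitors, was at 1.18 and 0.494 FPKM at 4 h and 2.51, 3.86, 2.82 and 3.78 FPKM at 8 h (limma adjusted p = 0.0588), and Hes1, a Notch target, at 5.11 and 5.03 FPKM and then 5.35, 9.13, 9.93 and 9.54 FPKM (adjusted p = 0.236). Kif11, the motor that separates spindle poles, fell from 5.82 and 5.07 FPKM to 1.59, 1.02, 0.644 and 1.18 FPKM (log2 -1.63 ± 0.19, limma adjusted p = 0.0395). Cenpf, a kinetochore protein, fell from 2.21 and 1.85 FPKM to 0.72, 0.385, 0.35 and 0.587 FPKM (log2 -1.01 ± 0.12). Top2a, the topoisomerase of dividing cells, was at 18.3 and 11.5 FPKM at 4 h and 4.06, 1.71, 1.46 and 3.1 FPKM at 8 h, and just missed the threshold (adjusted p = 0.0546). The summed level of the list was 114 to 182 FPKM at 4 h and 59.4 to 88.1 FPKM at 8 h. Kinesins and centromere proteins were counted by symbol, families picked after the values were seen. Of 27 kinesins 4 (Kif11, Kif20b, Kif23 and Kif2c) and of 12 centromere proteins 2 (Cenpe and Cenpf) were called lower, and none of either family higher. Of all genes tested 0.662% were called lower and 1.13% higher. Cenpf is also counted in the list above.

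Markers of other cells moved in part with these genes. Summed over all entries, the oligodendrocyte lineage list was at 63.1 to 72.1 FPKM at 4 h and 33.7 to 69.1 FPKM at 8 h, and the astrocyte and radial glia list at 421 to 547 and 272 to 487 FPKM, so the groups overlapped in both. Of 10 oligodendrocyte lineage genes tested, 4 did not overlap in the lower direction (Olig1, Olig2, Pdgfra and Sox10, 40%, against 15.7% of all genes tested). Mbp, a myelin gene, lay the other way, at 7.77 and 8.1 FPKM and then 10.6, 15.8, 24.9 and 10.2 FPKM. The microglial list was at 15.5 to 17.3 FPKM at 4 h and 5.11 to 11.8 FPKM at 8 h, with no overlap. Only 2 of its 13 members, Cd68 and Tyrobp, passed the filter, neither was called, and Tyrobp overlapped. Cd68 was the highest, at 6.58 and 9.3 FPKM and then 2.95 to 5.67 FPKM. Without the filter 9 members did not overlap in the lower direction and 1, Trem2, in the higher. Of all entries 12.6% and 13.6% did so. The microglial genes Emr1 and Fcrls, outside the list, are named because they were among the largest called differences. Emr1, which encodes the F4/80 antigen, fell from 4.04 and 1.88 FPKM to 0.115, 0.0584, 0.141 and 0.133 FPKM (log2 -1.78 ± 0.22, limma adjusted p = 0.0395), and Fcrls fell from 5.22 and 1.75 FPKM to between 0 and 0.03 FPKM (log2 -2.03 ± 0.31, adjusted p = 0.0497). The inhibitory neuron list was at 843 to 948 FPKM at 4 h and 457 to 835 FPKM at 8 h, and the excitatory list at 459 to 487 and 531 to 741 FPKM, so these sums did not overlap. The list medians did: the median deviation of the inhibitory list was -0.13 and 0.34 at 4 h and -0.40 to 0.33 at 8 h, and of the excitatory list -0.26 and 0.00 at 4 h and -0.18 to 0.34 at 8 h. The inhibitory sum included Sst, a neuropeptide gene at 380 and 187 FPKM at 4 h and 64.9 to 184 FPKM at 8 h. The part of a different cell composition in the results was not tested.

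Neuronal genes fell as well. Calb1, the calcium buffer calbindin, went from 25.1 and 12.5 FPKM to 3.25, 3.56, 3.52 and 3.37 FPKM (log2 -2.08 ± 0.27, limma adjusted p = 0.0408). Ntng2, a netrin-related synaptic adhesion protein, fell from 33.7 and 24 FPKM to 11, 8.59, 8.02 and 6.41 FPKM (log2 -1.66 ± 0.24). Gria2, the AMPA receptor subunit that limits calcium entry, fell from 56.7 and 65.3 FPKM to 35.6, 30.1, 36.2 and 30.3 FPKM (log2 -0.86 ± 0.12, adjusted p = 0.0443) and was the only called gene among 38 entries for synaptic components. Pcdh11x, a protocadherin, fell from 10.1 and 6.87 FPKM to 3.09, 3.05, 3.24 and 3.2 FPKM (log2 -1.17 ± 0.17), and Htr3a, an ion channel gated by serotonin and found in some interneurons, from 2.24 and 2.69 FPKM to 0.552, 0.613, 0.425 and 0.454 FPKM (log2 -1.20 ± 0.09). Usp9x, a deubiquitinase, changed less, from 28.6 and 28.5 FPKM to 19, 17.7, 16.1 and 19.1 FPKM (log2 -0.64 ± 0.10).

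Gene span, a property that the comparison did not use, differed between the directions. The median span was 24.5 kb over the named genes tested, 12.3 kb over the genes called higher and 53.2 kb over the 73 called lower. Genes over 100 kb made up 15% of all, 9.02% of those called higher and 31.5% of those called lower, and genes under 10 kb made up 24.4%, 42.9% and 6.85%. The wider non-overlapping classes lay in the same order, with medians of 18.9 kb for the 1962 higher and 34.8 kb for the 1757 lower genes. These are descriptions across genes, which are not independent replicates.

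**Figure D2:**
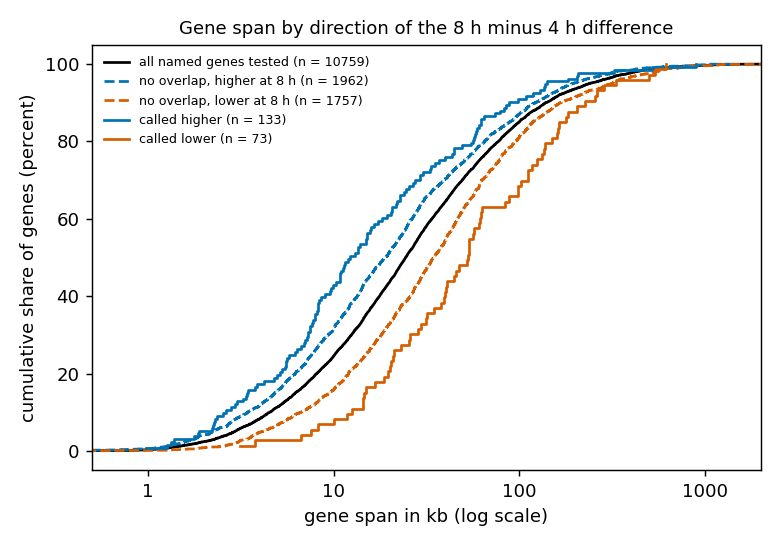
Cumulative share of genes by gene span in kb on a log scale, for all 10759 named genes tested (black), genes whose groups do not overlap (dashed) and called genes (solid), higher (blue) or lower (orange) at 8 h. The curves for genes lower at 8 h lie to the right, with a median of 53.2 kb for the called ones against 12.3 kb for those called higher.

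Activity-regulated effectors as a list were near the background. Of 34 tested none was called, 6 did not overlap in the higher direction (17.6%, against 17.1% of all genes tested) and 4 in the lower (11.8%, against 15.7%), and the median log2 difference was -0.19. Nptx2, which clusters AMPA receptors, was at 16.3 and 16.2 FPKM at 4 h and 36.1, 40.2, 60.5 and 62.7 FPKM at 8 h (log2 1.52 ± 0.26, limma adjusted p = 0.0562). Arc, which drives AMPA receptor uptake, was at 10.8 and 20.3 FPKM at 4 h and 42, 75.5, 39.4 and 79.4 FPKM at 8 h (adjusted p = 0.0839). Bdnf, the secreted neurotrophin, was at 12.5 and 18.9 FPKM at 4 h and 14, 7.13, 1.91 and 18.8 FPKM at 8 h, and the groups overlapped. Of the 24 immediate early transcription factors none was called, and 3 did not overlap in the higher direction (Atf3, Ier5 and Klf10, 12.5%) and 2 in the lower (8.33%). Both shares were under those of all genes tested. Of 24 inhibitors that feed back on signalling, Dusp2 was called higher and Zfp36l1, a pseudogene-rich gene, lower. Of all genes tested 1.13% were called higher and 0.662% lower. In this list 3 genes did not overlap in the higher direction (12.5%, against 17.1% of all genes tested) and 6 in the lower (25%, against 15.7%).

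CREB's relatives and partners were not called. Of 12 tested none passed, 3 did not overlap in the lower direction (25%, against 15.7% of all genes tested) and none in the higher. Crebbp, the CREB-binding acetyltransferase, was at 20.1 and 26.3 FPKM at 4 h and 15.1, 14.6, 11.7 and 14.1 FPKM at 8 h (log2 -0.69 ± 0.16, limma adjusted p = 0.0861). Ep300, its paralogue, was at 16.6 and 21.9 FPKM at 4 h and 12.2 to 13.8 FPKM at 8 h (adjusted p = 0.11). Crem, a CREB relative that gives rise to the inducible repressor ICER, was at 13.7 and 32.7 FPKM at 4 h and 44.5, 24.2, 13.6 and 44.4 FPKM at 8 h, and the groups overlapped.

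Other gene lists had few or no calls. Of 34 growth cone and axon guidance genes none was called, but 17 did not overlap in the lower direction (50%, against 15.7% of all genes tested) and 2 in the higher (5.88%, against 17.1%), with a median log2 difference of -0.40. Dpysl2, the collapsin response mediator, was at 159 and 225 FPKM at 4 h and 109, 94.8, 94.5 and 87.5 FPKM at 8 h (limma adjusted p = 0.058). Of 28 sterol and fatty acid synthesis genes none was called, 27 had a difference below 0 and 8 did not overlap in the lower direction (28.6%), with a median of -0.63. Lss, the lanosterol synthase of the cholesterol pathway, was at 42 and 60.3 FPKM at 4 h and 38.1, 23.7, 14.3 and 19.3 FPKM at 8 h (adjusted p = 0.175). As a list the sterol genes did not separate the times: the median deviation was 0.08 and 0.64 in the 4 h libraries and 0.24, -0.15, -0.83 and -0.02 in the 8 h libraries. Of 32 nucleolar and ribosome biogenesis genes 2 were called higher, Rrp9 and Rrp12, and 13 did not overlap in the higher direction (40.6%) against 1 in the lower (3.12%), with a median log2 difference of 0.25. Rrp12, which helps export ribosomal subunits, rose from 13.2 and 13.8 FPKM to 24.2, 25.4, 28.5 and 31.3 FPKM (log2 0.96 ± 0.12, adjusted p = 0.0408).

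Genes of the antiviral and inflammatory response were low throughout. Only 7 of 36 interferon and antiviral genes and 5 of 24 inflammatory genes reached the minimum level, and none was called. Isg20, an interferon-induced exonuclease, was at 2.11 and 2.55 FPKM at 4 h and 0.448 to 1.11 FPKM at 8 h (limma adjusted p = 0.0665). Of 19 heat shock genes none was called, and 4 did not overlap in the higher direction (21.1%, near the 17.1% of all genes tested). Hspa1b, an inducible HSP70 gene whose reads a near-identical copy can share, was at 19.9 and 13.3 FPKM at 4 h and 42.6, 112, 43.5 and 56.7 FPKM at 8 h (adjusted p = 0.0977).

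**Figure D3:**
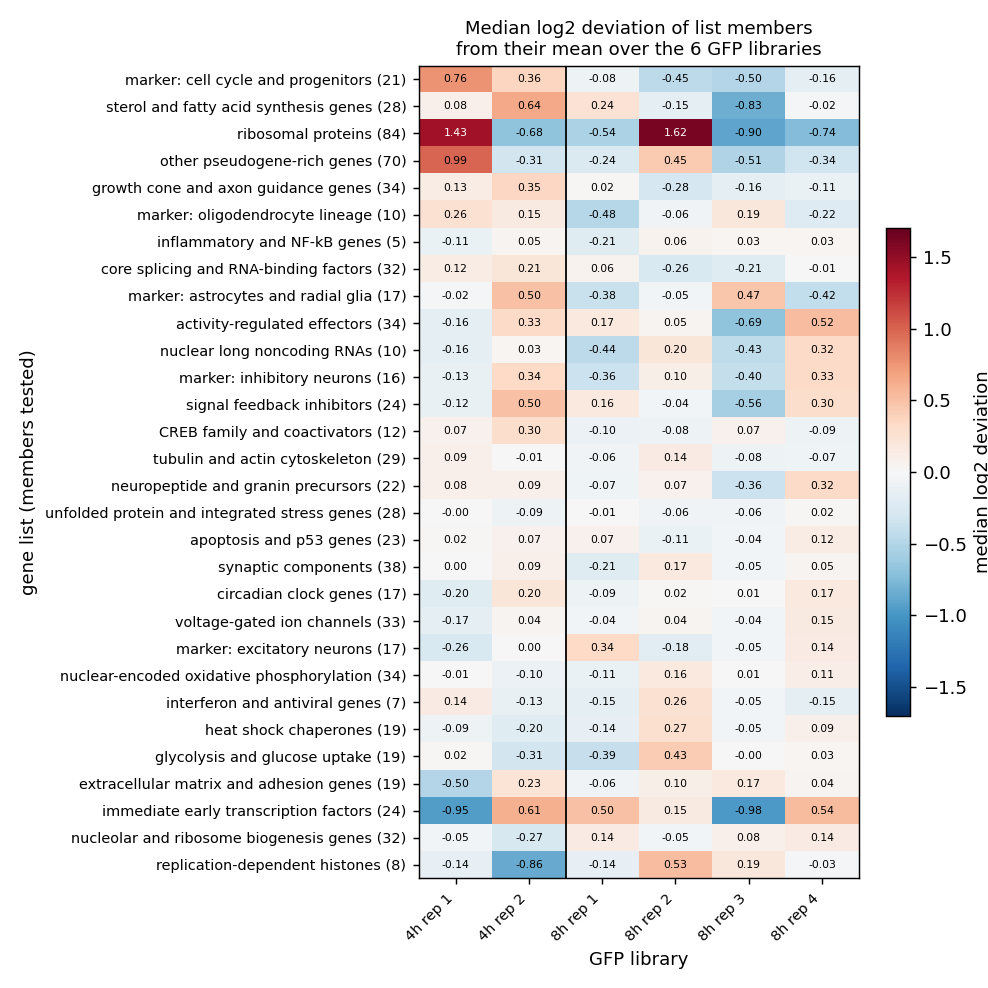
Median log2 deviation of the members of each gene list from their own mean over the 6 GFP libraries, with the number of members tested in brackets. The line separates 4 h from 8 h; cell cycle genes are at 0.76 and 0.36 in the 4 h libraries and between -0.50 and -0.08 at 8 h, while ribosomal and immediate early genes differ between libraries of the same time.

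Ribosomal and other pseudogene-rich genes followed the library and not the time, and are kept apart for that reason. The 84 ribosomal entries had a median log2 deviation of 1.43 in 4 h replicate 1 and 1.62 in 8 h replicate 2, against -0.90 to -0.54 in the other 4 libraries. They took 4.06% and 5.29% of the FPKM of tested genes in those libraries and 1.64% to 2.08% in the rest. None was called, and 4 did not overlap, all in the higher direction (Rpl4, Rpl8, Rps2 and Rps4l, 4.76%, against 17.1% of all genes tested). Ppia, the prolyl isomerase cyclophilin A with many processed pseudogenes, was at 492 FPKM in 4 h replicate 1 and 522 FPKM in 8 h replicate 2, but at 0.165, 0.0593, 0.0769 and 0.191 FPKM in the others. Gapdh, a glycolytic enzyme often used as a reference, was at 15.4 and 130 FPKM in the same libraries and at 0.858 to 1.13 FPKM in the other 4. Rpl4 was at 346 to 408 FPKM in all 6 libraries. Of the other 241 pseudogene-rich genes, 1 was called (Zfp36l1, lower), 11 did not overlap in the higher direction and 35 in the lower. Of all genes tested 17.1% and 15.7% did so, so the higher count lay under that share and the lower count near it.

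**Figure D4:**
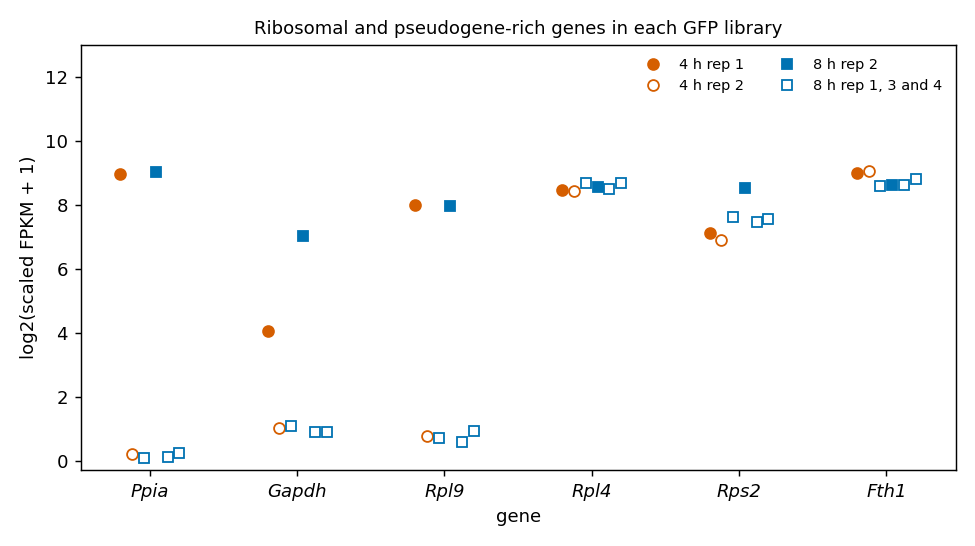
Level of 6 ribosomal or pseudogene-rich genes in each GFP library as log2(scaled FPKM + 1), with circles for 4 h and squares for 8 h, and filled symbols for 4 h replicate 1 and 8 h replicate 2. Ppia, Gapdh and Rpl9 are high only in the filled libraries, with Ppia at 492 and 522 FPKM against at most 0.191 FPKM, while Rpl4 and Fth1 differ little.

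The same comparison in the 12 WT and S40A CREB libraries used no GFP library, but the same runs. There limma called 3736 of 12080 genes (30.9%), 1924 higher and 1812 lower, with p-values that treat libraries of one run as independent, and 2470 without WT 4 h replicate 1. All named genes called higher with GFP were above 0 in the CREB contrast, and all 73 called lower were below it, where 49.4% of all named genes were above 0. Of them 130 and 71 were also called there. The 5 exceptions were Fam13c, Raver2 and Tfap2c on the higher side and Blcap and Rab3c on the lower. The median log2 difference of the genes called higher was 1.17 with GFP and 1.02 with the CREB viruses, and of those called lower -1.02 and -1.18. Nrgn, at 48.4 to 58.2 FPKM in the 4 CREB libraries at 4 h and at 99.9 to 356 FPKM in the 8 at 8 h, had a log2 difference of 2.27. Since runs are shared, this shows that the differences recur across viruses within the same pair of times and runs, and does not separate time from run.

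**Figure D5:**
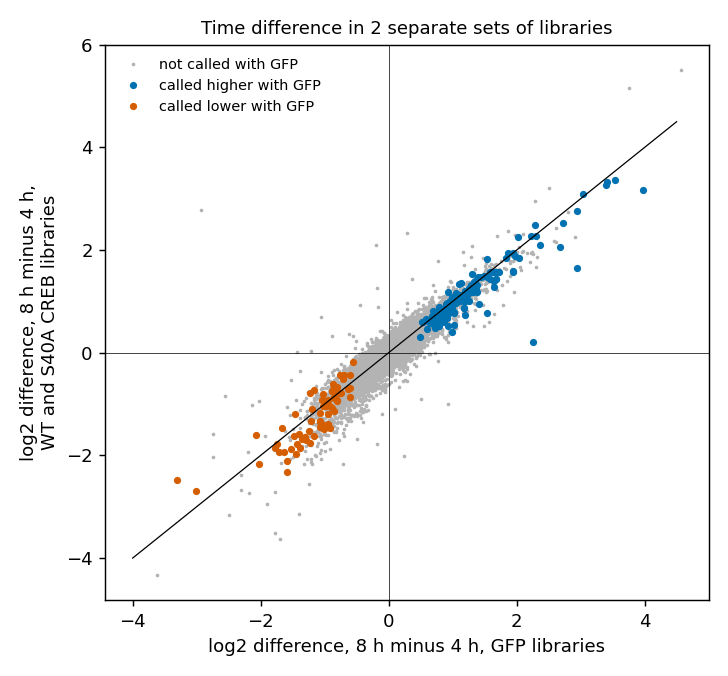
Log2 difference between 8 h and 4 h with GFP (horizontal) and with the WT and S40A CREB viruses (vertical) for 10759 named genes, with the line of equal values. Genes called higher with GFP (blue) all lie above 0 on the vertical axis and genes called lower (orange, 73) all below it.

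A test of whether the time difference depended on the virus called 4 of 12080 genes (0.0331%) by limma, with 81 at an unadjusted p under 0.05. All 4 were small RNA entries with values at exactly 0 in many libraries: Mir6399, Mir92b, Snord73a and Snord92. Mir92b was at 106 and 61.9 FPKM in the GFP libraries at 4 h and listed at 0 in all 4 at 8 h, and Snord92 at 52.9 and 62.8 FPKM and then 0. All 4 entries span under 300 bp. When the midpoint of the deposited interval replaced the FPKM of the 4 h replicate 1 libraries, a choice made after seeing the data, none of the 4 was called. The count was 10 without GFP 4 h replicate 1, 9 without GFP 4 h replicate 2, 10 without WT 4 h replicate 1, and 12 and 14 without S40A 4 h replicate 1 and 2. With all 18 libraries no protein-coding gene passed this test, and a miss does not show that the time difference was equal for the viruses.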

How the data were processed

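The authors deposited 1 Cufflinks table per library with FPKM, its interval and a status for 24490 entries, per the file headers. Per the submitters' processing notes, CASAVA 1.7, Bowtie 0.12.2 and Cufflinks were used, with builds mm8 and mm10. The treatment of reads with several matches and the strand setting are not given in the sources used here. Coordinates are as the tables give them.

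The deposited FPKM were scaled by median-of-ratios factors over 22 libraries. Entries with a mean of at least 1 FPKM were kept, and 21 of them with a failed estimate in any library were removed, which left 12080. Values were log2(FPKM + 1), which understates the change of low genes. limma 3.58.1 in R 4.3.3 fitted the 6 GFP libraries with a mean-variance trend and 4 residual degrees of freedom, with a two-sided test and Benjamini-Hochberg adjustment. On simulated data with 12080 genes the fit recovered 34 of 100 genes changed by 1 log2 unit and 75 of 100 changed by 2, with 5 false calls. The simulated scatter was independent between libraries, without shared runs, and the changed genes had a mean log2 value above 2. These counts therefore give no false call rate for the real libraries. Counting and figures used pandas 2.3.3 and numpy 2.4.6 in Python 3.11.15, with matplotlib 3.10.9.

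The members and gene lists were chosen with earlier results of these data known. Named by rule were Creb1, the 15 highest genes, the 12 largest called differences in each direction, up to 4 members of each list by smallest p, and the 4 largest differences of ribosomal or pseudogene-rich genes. Entries under 300 bp, predicted genes and duplicated symbols were left out of the first of these. Other genes in the text were chosen after their values were seen. Some genes that the rule names are not reported here. Pseudogene-rich means a ribosomal gene, a listed gene, or one with a named pseudogene copy.

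Replicate numbers were not used to pair the samples across the times. Same-numbered libraries deviated from their group means with r = -0.19 and -0.5. With only 2 libraries at 4 h their deviations mirror each other, so this check cannot show whether pairs exist.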

Additional observations from a re-analysis of the deposited data

Results flagged for a closer look

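A library stood apart from the other 3 at 8 h in 7 of the values checked over 38 genes and 31 lists, by a test for a single distant value that chance meets in about 1 of 20 groups. Nnat was at 425 FPKM and Stmn2 at 731 FPKM in 8 h replicate 2, both below the other 8 h libraries. Rn45s was at 143 FPKM in 8 h replicate 3. In 8 h replicate 2 the median log2 deviation was 1.62 for ribosomal proteins and 0.14 for tubulin and actin genes, above the others. It was 0.07 for the CREB family in 8 h replicate 3 and -0.21 for inflammatory genes in 8 h replicate 1.

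The time difference with GFP differed from that with the CREB viruses, by the limma test of the difference itself, for 4 small RNA entries. The log2 difference between the contrasts was 2.93 for Mir6399, -3.46 for Mir92b, 3.72 for Snord73a and -5.87 for Snord92.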

How the results depend on the processing

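Against 216 genes called by limma, the count was 52 without further scaling, 143 without the filter (over 20376 entries), 33 with a minimum of 5 FPKM, 1362 with all 22 libraries in the fit, 15 with 8 h replicates 1 and 2 only, 38 with 8 h replicates 3 and 4 only, and 12 to 174 leaving out 1 GFP library. The count of non-overlapping genes was 3960, and 4375 to 7363 leaving out 1 GFP library, with 6255 for 8 h replicates 3 and 4 only; fewer libraries make non-overlap easier to meet. For the CREB libraries the count was 3736, and 2470 to 4049 leaving out 1 CREB library. The test of the virus difference gave 4 genes, 0 with interval midpoints, and 4 to 14 leaving out 1 library. The cause of these shifts was not tested. In each of these GFP fits the tested genes of the 216 kept their direction. Non-overlap fixed this in advance in every such fit but the one without further scaling.

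With the replicate number as a block, 0 genes were called by limma, with 664 at an unadjusted p under 0.05 and 1 residual degree of freedom. Whether the numbers mark pairs is not known, and 1 residual degree of freedom gives little to estimate scatter from. The count of 0 is therefore no sign of a weaker effect. Depth limits genes under 1 FPKM at 4 h, of which 43 were called.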
